A study of Rattus norvegicus with 15 samples.

Results

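The genes described here are 9 that are commonly read as markers of hepatic stellate cells or of their retinoid store: Bgn, Ecm1, Reln, Colec11, Colec10, Lrat, Hgf, Pdgfrb and Des. They were taken by gene name from rat expression arrays, where they have 14 of 45598 probes. Of the 9, 6 were well above background on enough arrays to be tested, among 17416 features tested in all. Hepatocytes were isolated from female Wistar rats, stained with a Hoechst dye, which binds DNA, and sorted into fractions of 2c, 4c and 8c DNA content. A diploid cell that has not replicated its DNA is 2c. Each of 5 experiments gave 1 Cy3-labelled array per fraction, so 15 arrays in all and n = 5 per fraction. Experiments 1 to 5 used rats aged 12, 14, 6, 5 and 6 weeks, and all groups share the strain, the sex and the isolation. How many animals stand behind an experiment is not stated, nor how the gates were set, whether doublets were removed, or whether other liver cells were depleted. A 4c event need not be a tetraploid cell, since a diploid cell that has replicated its DNA, or a pair of 2c cells stuck together, stains alike.

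Stellate cells lie between the hepatocytes and the sinusoidal endothelium and hold most of the body's vitamin A as retinyl esters in lipid droplets. Hepatocytes take up dietary retinyl esters, hydrolyse them and release retinol bound to retinol-binding protein. Stellate cells take the retinol up and re-esterify it with lecithin retinol acyltransferase, the product of Lrat. Stellate cells also make matrix proteins and the growth factor HGF, whose receptor sits on hepatocytes. On injury they lose their droplets and become myofibroblasts.

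RefSeq's rat promoter table (assembly GRCr8) held 6 of the 9 genes. The 250 bases before the annotated start are shown for the 4 of them whose 2c arrays were all well above background and lay above every 4c and 8c array, since these genes moved together. Capitals mark matches on either strand to an E box (CANNTG), an AP-1 site (TGANTCA), a GC box (GGGCGG) or a TATA box (TATAAA). No match shares a base with another in these windows.
Ecm1, chr2:185981607-185981856, minus strand: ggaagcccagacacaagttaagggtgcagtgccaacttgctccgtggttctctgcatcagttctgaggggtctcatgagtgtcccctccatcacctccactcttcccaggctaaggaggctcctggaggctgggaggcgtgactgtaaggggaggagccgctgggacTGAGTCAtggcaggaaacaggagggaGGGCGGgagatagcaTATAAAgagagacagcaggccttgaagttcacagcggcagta
Colec11, chr6:50984846-50985095, minus strand: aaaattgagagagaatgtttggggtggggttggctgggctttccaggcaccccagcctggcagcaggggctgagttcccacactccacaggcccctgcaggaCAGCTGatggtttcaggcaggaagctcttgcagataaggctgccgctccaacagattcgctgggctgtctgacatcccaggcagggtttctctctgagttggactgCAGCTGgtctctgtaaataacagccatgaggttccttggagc
Lrat, chr2:170571213-170571462, minus strand: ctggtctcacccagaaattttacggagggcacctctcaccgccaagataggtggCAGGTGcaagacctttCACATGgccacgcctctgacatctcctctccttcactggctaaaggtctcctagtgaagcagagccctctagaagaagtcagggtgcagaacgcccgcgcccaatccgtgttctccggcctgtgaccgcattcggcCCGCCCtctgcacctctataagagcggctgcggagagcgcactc
Reln, chr4:13628318-13628567, plus strand: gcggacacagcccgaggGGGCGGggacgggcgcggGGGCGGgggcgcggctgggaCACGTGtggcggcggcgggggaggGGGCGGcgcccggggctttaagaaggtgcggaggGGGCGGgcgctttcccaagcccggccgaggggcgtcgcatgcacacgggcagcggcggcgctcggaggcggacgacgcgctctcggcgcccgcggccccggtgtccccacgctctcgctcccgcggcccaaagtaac
The 4 windows hold no motif in common. Colec11, Lrat and Reln each have an E box, a motif found in 65.5% of 33469 rat promoter windows of this length. Ecm1 has none, but it alone of the 4 has an AP-1 site, found in 6.34% of all windows, and a TATA box, found in 12.9%. A GC box stands in Ecm1, Lrat and Reln and in 30.5% of all windows. The windows also differ in composition, from 56.8% G and C in Colec11, 57.6% in Ecm1 and 59.2% in Lrat to 80.0% in Reln, against a median of 51.2% over all windows. Of the other genes with a window, Hgf has E boxes and none of the other 3 motifs, and Des has an E box and GC boxes. A match describes these letters only.

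Each probe is 60 bases long. The files place the probes on the rn4 assembly, and no rn4 annotation was used, so exon or intron is not given. Bgn, Lrat and Hgf have 2 probes each and Reln has 3. The sequences below are the only probe of Ecm1 and, for Lrat, Reln and Hgf, the dimmer of the probes, because for these 3 genes the choice of probe sets how much can be seen.
Ecm1, chr2:190525359-190525418, minus strand: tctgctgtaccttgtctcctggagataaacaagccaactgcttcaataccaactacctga
Lrat, chr2:174644763-174644822, minus strand: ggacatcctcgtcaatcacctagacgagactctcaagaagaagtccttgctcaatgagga
Reln, chr4:8608162-8608221, plus strand: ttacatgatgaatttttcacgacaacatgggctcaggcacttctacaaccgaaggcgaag
Hgf, chr4:14864538-14864597, minus strand: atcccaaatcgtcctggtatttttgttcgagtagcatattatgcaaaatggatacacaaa
For Lrat, this probe was well above background on 1 2c and 1 8c array. The other Lrat probe, whose start lies 8222 bases away, was well above background on all 5 2c arrays and no other array, and it carries the Lrat values below. The Reln probe shown was well above background on 3 of the 5 2c arrays and on no other, and the pair of other Reln probes on all 5. The 3 Reln probes gave differences of -3.65, -3.51 and -2.58 between 8c and 2c (log2), so they had the same direction. The Hgf probe shown was well above background on 1 2c array and the other Hgf probe on 2. The Bgn probes share 51 bases and gave -5.25 and -4.87. The Lrat probes differed more: the one shown gave -0.61 and the other -3.99, and between 4c and 2c -0.73 and -4.23. The Hgf probe shown gave -1.26 between 8c and 2c and the other -2.76.

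Levels are log2 signals from which the 75th percentile of the array was taken, so 0 is that percentile, so they compare transcripts within a fraction's RNA and do not give amounts per cell. In such bulk samples, fewer cells of a type and less RNA per cell cannot be told apart. Between 39.5% and 47.4% of the probes of an array were well above background, and the number of arrays limits the precision. Alb, the albumin gene of hepatocytes, had mean levels of 7.10 in 2c, 7.04 in 4c and 6.96 in 8c, and of 15 hepatocyte genes 0 passed in any comparison (limma), with 1 at an unadjusted p under 0.05, between 4c and 2c. Transcripts of pancreatic acinar cells were abundant on 6 arrays, the 2c and 8c arrays of experiment 1, all 3 arrays of experiment 2 and the 8c array of experiment 3. The median level of 23 acinar genes was -0.71 to 5.15 on these 6 and -6.91 or lower on the other 9. The arrays lay on 2 slides, the first with experiments 1 and 2 in full and, of experiment 3, all but the 8c array.

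The name of the set was checked against its genes, and 2 of the 9 did not follow the rest. Lrat, Reln, Colec11, Colec10, Bgn, Ecm1 and Hgf were highest in the 2c fractions and stood together across experiments. Pdgfrb, the usual surface marker of stellate cells, had about the same level on all 15 arrays. Des, the intermediate filament gene by which stellate cells of the rat are often recognised, was well above background on 1 array, a 4c array. Pdgfrb and Des, like Ecm1, Colec11 and Colec10, have only 1 probe, so no other probe could be compared. The 9 genes are therefore named one by one below, and the first 7 are not called a stellate cell signal.

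**Figure D1:**
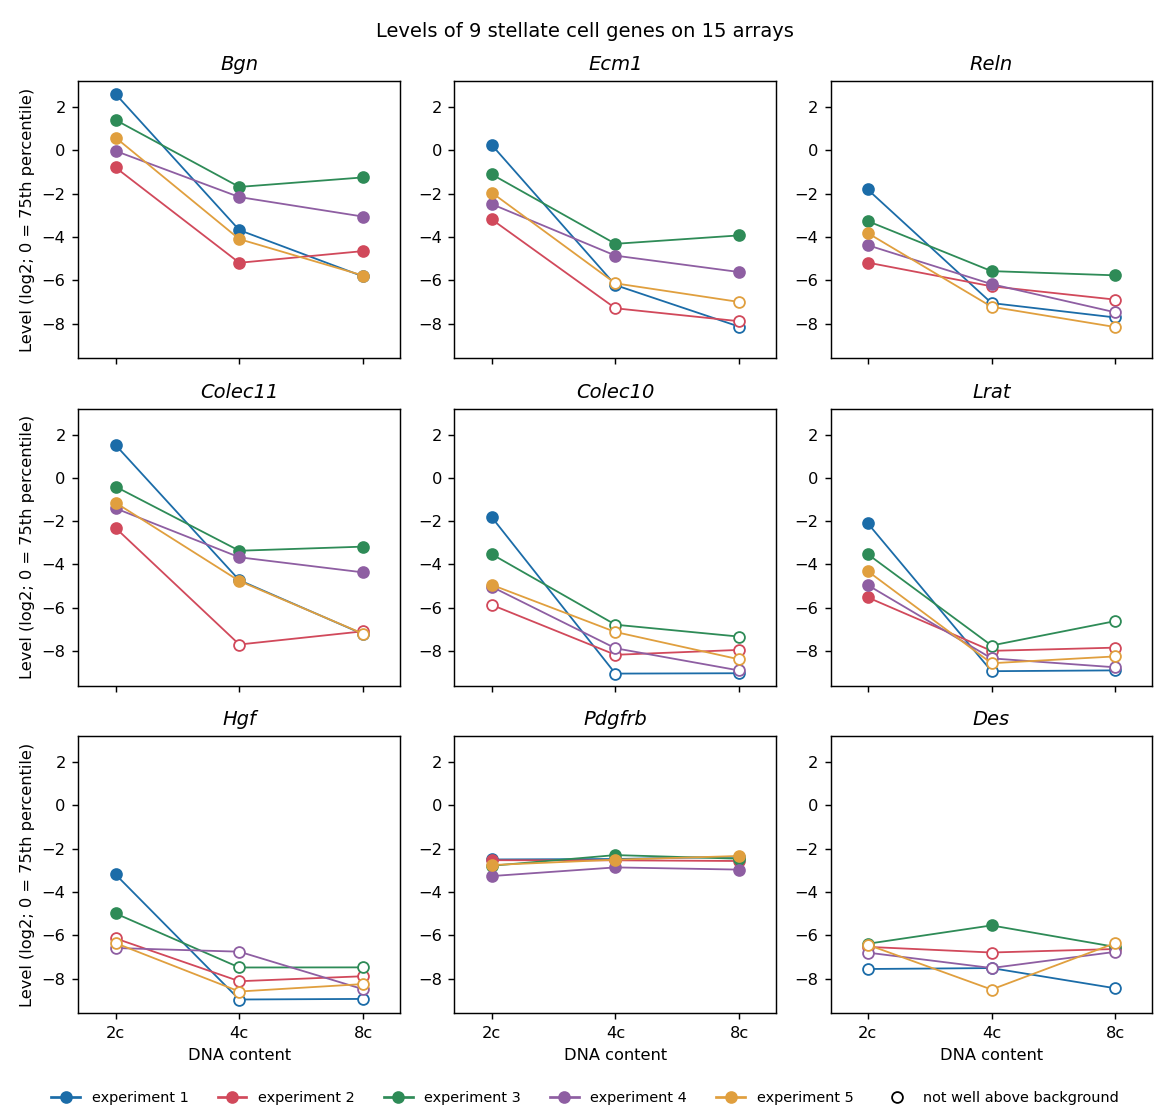
Level of each of the 9 genes (vertical axis, log2, 0 is the 75th percentile of the array) in the 2c, 4c and 8c fractions, with 1 line per experiment and open circles where the probe was not well above background. Bgn, Ecm1, Reln, Colec11 and Lrat show no overlap between the 2c arrays and the other fractions, whereas Pdgfrb is flat and Des stays near background.

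The first question is how far the genes differ between the ends of the sorted range. In the 8c fractions Bgn, Ecm1, Reln, Colec11 and Lrat were lower than in the 2c fractions in 5 of 5 experiments, and Pdgfrb was not. All 5 passed the test (limma with the experiment as a block, Benjamini-Hochberg over 17416 features). Of all features tested, 1.54% were lower at that threshold, 0.89% were lower with no overlap between the groups, and 8.14% were lower in all 5 experiments. The median difference over all features was -0.02 on the log2 scale. Lrat and Reln reached the filter of 5 arrays only through their 2c arrays, with 0 and 3 arrays well above background outside 2c. For such genes the filter favours a fall from 2c. The calls of Lrat and Reln are therefore no test, and no p is given for them. The 5 of 6 is a description and not a result on the set. Bgn, Ecm1 and Colec11 reached the filter without the 2c arrays. Without experiment 5, Ecm1 alone of the 6 passed, and without the experiment as a block Bgn and Colec11 did not (adjusted p = 0.0508 and adjusted p = 0.0548, limma). With normexp background correction the differences shrank to -3.32 for Bgn, -1.97 for Ecm1, -2.47 for Colec11, -1.04 for Reln and -0.93 for Lrat, and Reln and Lrat no longer passed.

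Bgn encodes biglycan, a small leucine-rich proteoglycan of the matrix. It is the one gene of the 5 whose probe was well above background on all 15 arrays, so its fold is measured and not a bound. Its 2c levels were 2.61, -0.79, 1.40, -0.03 and 0.59 in experiments 1 to 5. In 4c they were -3.68, -5.19, -1.69, -2.16 and -4.10, and in 8c -5.82, -4.65, -1.25, -3.06 and -5.78. The lowest 2c array lay above the highest array of either other fraction. The fitted 8c minus 2c difference was -4.87 (SE 0.73, adjusted p = 0.0082), a 29.2-fold fall. The size rests on single experiments: it was 15.8-fold without experiment 1 and 42.9-fold without experiment 3.

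Ecm1 encodes a secreted matrix glycoprotein that, in mouse liver, has been described as holding latent TGF-beta inactive. Its 2c levels were 0.26, -3.18, -1.11, -2.48 and -1.95 in experiments 1 to 5. In 8c they were -8.14, -7.89, -3.93, -5.62 and -7.00, and the probe was well above background there in experiments 3 and 4 alone. The groups did not overlap. The fitted difference was -4.82 (SE 0.65, adjusted p = 0.00501), a fall of at least 18.4-fold. For this lower bound a dim 4c or 8c array counts at its lowest signal well above background or its own signal, whichever is higher. All 2c arrays count at their own signal, so such a fold is a bound only where all 5 were well above background. Without experiment 1 the bound for Ecm1 was 10.3-fold.

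Reln encodes reelin, a large secreted glycoprotein best known for guiding neurons, which in the liver is made by stellate cells. Its 2c levels were -1.81, -5.18, -3.27, -4.38 and -3.82. In 8c they were -7.72, -6.89, -5.77, -7.48 and -8.16, of which the array of experiment 3 alone was well above background. The lowest 2c array, of experiment 2, still lay above the highest 8c array. The fitted difference of Reln was -3.51 (SE 0.54), and its 8c level was at least 7.06-fold lower, or at least 4.47-fold without experiment 1.

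Colec11 encodes a collectin, a soluble lectin that binds sugars on microbes and can start the lectin pathway of complement. Its 2c levels were 1.52, -2.31, -0.41, -1.41 and -1.15. In 8c they were -7.22, -7.09, -3.18, -4.37 and -7.20, well above background in experiments 3 and 4. The 8c arrays of experiments 3 and 4 stood above the other 3, as for Ecm1, and all 5 lay below the 2c arrays. For Colec11 the fitted difference was -5.06 (SE 0.76, adjusted p = 0.0082), and the fall at least 26.5-fold, or at least 13.3-fold without experiment 1.

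Lrat, the enzyme gene of retinyl ester storage, had 2c levels of -2.10, -5.52, -3.52, -4.95 and -4.31. In 8c they were -8.89, -7.84, -6.61, -8.75 and -8.25, none of them well above background. The probe read for Lrat gave no measured level in 8c or 4c, so it gives both fractions only an upper bound. By this probe Lrat was at least 6.06-fold lower in 8c, with a fitted difference of -3.99 (SE 0.56), and at least 3.89-fold lower without experiment 1. With normexp its difference shrank to -0.93. The other Lrat probe was well above background on 1 2c and 1 8c array and gave a difference of -0.61.

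Colec10, a second collectin gene whose product pairs with that of Colec11, was too dim for the test. Its 2c levels were -1.81, -5.86, -3.52, -5.03 and -4.94, of which all but that of experiment 2 were well above background. No 4c or 8c array was, with 8c levels between -9.02 and -7.33. By the rule for dim arrays its mean was 5.51-fold lower in 8c, or 3.28-fold without experiment 1. The dim 2c array of experiment 2 counts there at its own signal, so the 5.51-fold is no strict bound. Colec10 was lower in each of the 4 experiments with a measured 2c array. In experiment 2 both arrays were dim. Without the filter on dim probes, its difference had an adjusted p = 0.0331 over 37877 features (limma).

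Hgf, the gene of hepatocyte growth factor, was well above background on the 2c arrays of experiments 1 and 3 alone, at -3.19 and -4.99. The other 2c arrays read -6.14, -6.59 and -6.36 and the 8c arrays -8.94 to -7.48. In the other 3 experiments both arrays of the pair were dim, so a direction can be read in 2 experiments alone, and it was lower in 8c in both. By the rule for dim arrays the fall of Hgf was 2.36-fold and rests on experiment 1, without which it was 1.45-fold. With 3 dim 2c arrays at their own signal, neither fold is a strict bound. Without the filter Hgf did not pass (adjusted p = 0.139, limma).

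Pdgfrb encodes a receptor for platelet-derived growth factor, the main mitogen of activated stellate cells. Its levels were -3.27 to -2.50 in 2c, -2.87 to -2.30 in 4c and -2.97 to -2.34 in 8c, with all 15 arrays well above background. The 3 ranges overlapped, and the 8c level was above that of 2c in 4 of 5 experiments. The difference of 0.23 between 8c and 2c (SE 0.09, 95% interval 0.03 to 0.42) did not pass (adjusted p = 0.266, limma). This interval is not adjusted for the number of features. The intervals of Bgn, Ecm1 and Colec11 lay at -3.25 or lower.

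Des encodes desmin. Its 2c levels ran from -7.56 to -6.39, its 4c levels from -8.50 to -5.54 and its 8c levels from -8.45 to -6.36. The 4c array of experiment 3 alone was well above background, so Des has no measured level in 2c or 8c and no direction is given.

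**Figure D2:**
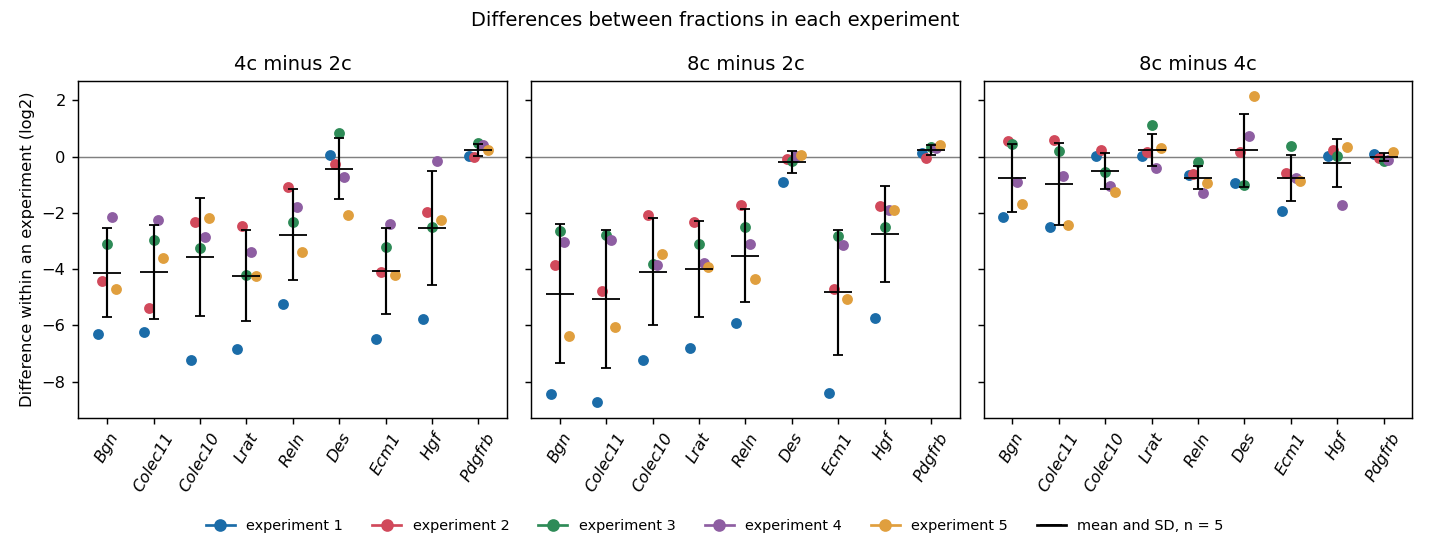
Difference between 2 fractions within each experiment (vertical axis, log2) for the 9 genes, with the mean and SD over the 5 experiments in black. In experiment 1 the 8c minus 2c difference of Bgn is -8.43, against -2.65 in experiment 3, while that of Pdgfrb lies between -0.04 and 0.42 in all 5.

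The 4c fractions resembled the 8c fractions. Bgn, Ecm1, Reln, Colec11 and Lrat were again lower than in 2c in 5 of 5 experiments. All 5 passed (limma), with the same limit for Lrat and Reln, which reached the filter only through their 2c arrays. At that threshold 0.907% of all features fell, 0.936% fell with no overlap and 8.62% were lower in all 5 experiments. This comparison shares its 2c arrays with the one above. Bgn fell 17.4-fold, with a fitted 4c minus 2c difference of -4.12 (SE 0.73, adjusted p = 0.0384). Lrat, with a difference of -4.23 (SE 0.56), was at least 6.31-fold lower and had no 4c array above background. Ecm1 was at least 14.9-fold lower, with 3 of the 5 4c arrays above background (adjusted p = 0.0298). Colec11 was at least 14.3-fold lower, with 4 arrays (adjusted p = 0.0411), and Reln at least 6.60-fold, with 2. Without experiment 1 these bounds were 4.11-fold for Lrat, 9.51-fold for Ecm1, 9.39-fold for Colec11 and 4.26-fold for Reln. These 4c calls were close to the threshold and were lost more readily than the 8c calls: with any 1 experiment left out, 0 to 3 of the genes passed, 0 without experiment 3 or 5, against 1 to 5 in 8c.

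On the mean over the 5 experiments Colec10 was 5.68-fold lower in 4c by the rule for dim arrays, or 3.43-fold without experiment 1. Its direction was lower in each of the 4 experiments with a measured 2c array. On the same mean Hgf was 2.33-fold lower, or 1.43-fold without experiment 1. Its direction was lower in the 2 experiments with a measured 2c array. Since both genes had dim 2c arrays, these folds are no strict bounds, and they do not hold for each experiment. Neither passed without the filter on dim probes (adjusted p = 0.113 and adjusted p = 0.241, limma). Pdgfrb differed by 0.23 (SE 0.09, adjusted p = 0.25, limma).

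Between 8c and 4c, 0 of the 6 tested genes passed (limma), and 0 had an unadjusted p under 0.05. Of all features 0.0115% were lower and 0.609% higher. The differences were -0.75 for Bgn (SE 0.73, 95% interval -2.37 to 0.87), -0.97 for Colec11 (-2.65 to 0.72) and -0.75 for Ecm1 (-2.19 to 0.69). With 5 experiments, a change of any size within these intervals remains possible. The probes read for Lrat, Colec10 and Hgf were dim on all 4c and 8c arrays. No difference between 4c and 8c can be read for these genes. Reln was measured in both fractions in experiment 3 alone, and its difference turned to 0.12 with dim arrays at their floor, so no direction is given for it either.

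The spread between experiments was wide and was shared by the genes. Experiment 1 had the highest 2c level for 8 of the 9 genes, all but Des, and experiment 2 the lowest for 6 of them, of which Colec10 was not well above background there. In experiment 1 the 2c level of the 7 genes other than Pdgfrb and Des stood 1.85 to 2.42 above the mean of that gene over the 2c arrays (log2), and in experiment 2 it stood -1.63 to -0.69 from it. In the other fractions an order can be read only where the highest array was well above background and above the level or floor of the others. This held for 6 genes in 4c, and experiment 3 was highest for all 6, Bgn, Ecm1, Reln, Colec11, Pdgfrb and Des. It held for 5 genes in 8c, where experiment 3 was highest for Bgn, Ecm1, Reln and Colec11 and experiment 5 for Pdgfrb. For Lrat, Colec10 and Hgf no such order can be read in 4c or 8c.

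Kupffer cell and endothelial genes mostly had their highest levels in the same experiments, but not all of the order was shared. Experiment 1 had the highest 2c level for 9 of 9 Kupffer cell genes and 5 of 5 sinusoidal endothelial genes that fell in 8c, and experiment 3 had the highest 8c level for 7 of the 8 and 4 of the 4 whose highest 8c array could be read in that way. The 2c array of experiment 1 stood 1.32 to 2.58 above the mean for the Kupffer cell genes and 1.34 to 2.00 for the endothelial genes. The lowest 2c level was in experiment 4 for 5 Kupffer cell genes and in experiment 2 for 4. For the endothelial genes it was in experiment 2 for 4 and in experiment 4 for 1. In experiment 5 the 2c arrays stood -0.91 to -0.13 from the mean for the 7 genes of the set. They stood -0.02 to 0.68 from it for the Kupffer cell genes. The part of these other cell types in the values above was not tested.

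**Figure D3:**
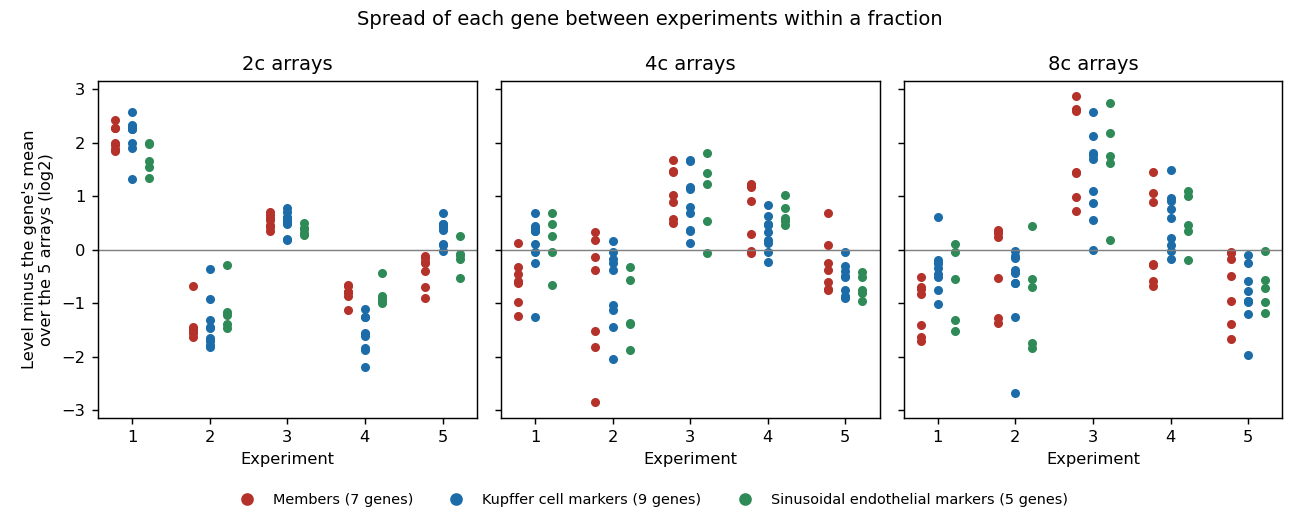
Level of each gene minus its own mean over the 5 arrays of the fraction (vertical axis, log2) by experiment, for 7 of the 9 genes (all but Pdgfrb and Des) and for the Kupffer cell and sinusoidal endothelial genes lower in 8c, arrays not well above background included. In 2c the 7 genes of experiment 1 stand 1.85 to 2.42 above their means and the 9 Kupffer cell genes 1.32 to 2.58.

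The rats of experiments 1 and 2 were the oldest, at 12 and 14 weeks, and these experiments had the highest and, for 6 genes, the lowest 2c levels. The 8c minus 2c difference changed by -0.33 per week for Ecm1 (SE 0.16) and by -0.23 for Bgn (SE 0.20), and for none of the 6 tested genes did this interaction with age pass (adjusted p from 0.962, limma). Of all 17406 features tested for it, 0 passed and 832 had an unadjusted p under 0.05. With 4 ages over 5 experiments, age and experiment cannot be told apart.

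Within the set, Bgn, Ecm1 and Colec11 had the most alike patterns. After each gene's mean over the 15 arrays was removed, the root mean square difference was 0.42 between Bgn and Ecm1, 0.47 between Bgn and Colec11 and 0.51 between Colec11 and Ecm1 (log2). Lrat and Reln, dim on most 4c and 8c arrays, formed the next pair at 0.68, and Pdgfrb stood 1.84 to 2.77 from every other tested gene. For scale, the SD over the 15 arrays was 2.66 for Bgn and 0.26 for Pdgfrb.

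By the same measure the genes outside the set nearest to Bgn were Steap4 (0.54) and Ramp1 (0.54), and to Colec11 Kdr (0.67), a receptor of endothelial cells, and Ramp1 (0.67). Nearest to Ecm1 were Vipr1 (0.40), which encodes a neuropeptide receptor, and Steap4 (0.45). Nearest to Reln were Sod3 (0.42), the extracellular superoxide dismutase, and Fcer1g (0.48), a signalling chain of Fc receptors in myeloid cells. Lrat lay nearest to Clec14a (0.59), an endothelial lectin, and Col6a2 (0.62), a collagen VI chain. So genes used as markers of stellate, endothelial and myeloid cells all stood among the nearest. The mean 8c levels of Steap4, Ramp1, Clec14a and Col6a2 were -7.23, -7.51, -7.86 and -7.79, near background. Likeness to them outside 2c is thus in part that of dim signals. Pdgfrb lay nearest to Surf4 (0.13) and Fhip2a (0.13), which like it varied little.

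Other stellate cell genes mostly had lower levels in 8c. Of 12 tested, 12 had a difference below 0, 7 passed as lower and 0 as higher, against 1.54% of all features that passed as lower, and the median was -1.34. Of the 7, Vipr1, Col3a1 and Pdgfra reached the filter only through their 2c arrays, which favours a fall, so no p is given for them. Vipr1 was at least 10.1-fold lower (SE 0.68 on the log2 scale), and Sod3 differed by -3.52 (SE 0.43, adjusted p = 0.00361). Col3a1, the chain of collagen III, was at least 9.87-fold lower. Pdgfra, the companion receptor of Pdgfrb, was well above background on 3 2c arrays and 2.06-fold lower by the rule for dim arrays. With its other 2c arrays dim, this is no strict bound. The remaining 3 that fell were Col1a2, Angptl6 and Timp1. Rgs5, Acta2, Gucy1a1 and Hhip were among those that did not pass, with differences of -0.37, -0.33, -0.79 and -0.67.

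A further 17 other stellate cell genes had a probe but were too dim to be tested. Of these, 5 were well above background in 2c arrays alone (29.4%, against 8.43% of all 9101 such genes). They were Cygb, cytoglobin, on 3 2c arrays, and Tcf21, Vim, Gucy1b1 and Plat, on 1 2c array each. Another 8 of the 17 were well above background on no array and 3 only outside 2c, against 6563 and 1209 of the 9101. Gfap, Nes, Ngfr and Dcn, also read as markers of stellate cells or fibroblasts, were well above background on 0 2c arrays. Of the defining markers listed for stellate cells, Lrat, Reln, Colec11 and Cygb were thus highest in 2c, Pdgfrb and Rgs5 did not pass, and Des was near background.

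**Figure D4:**
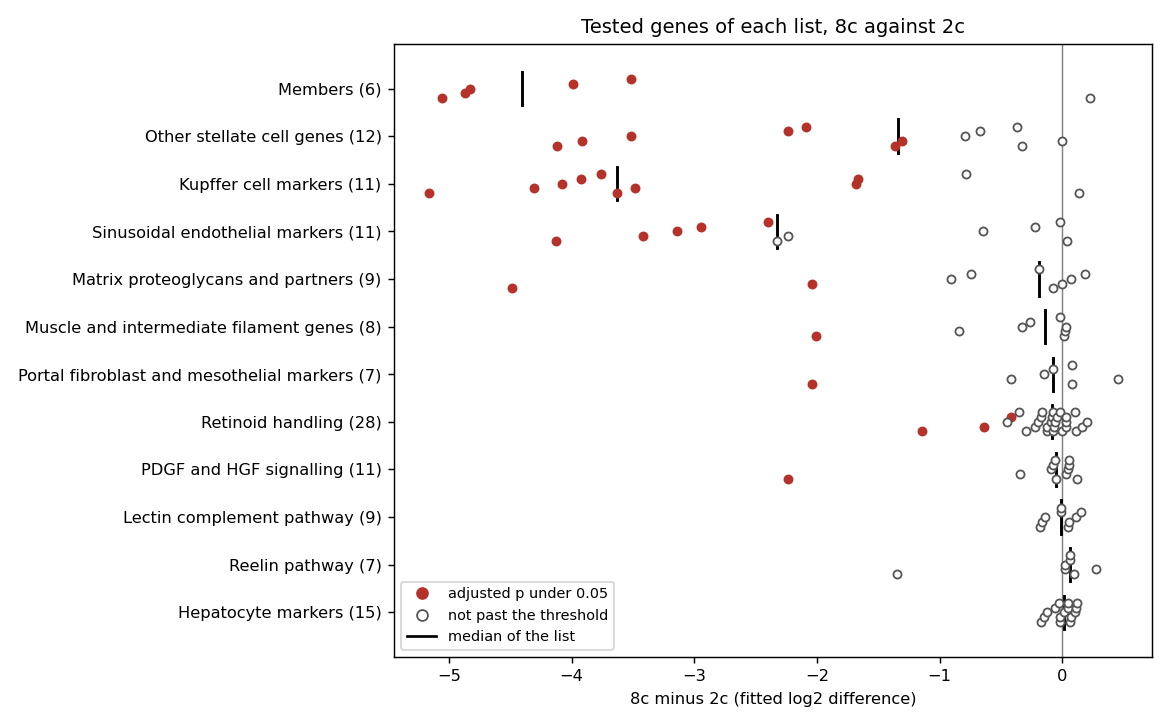
Fitted 8c minus 2c difference (horizontal axis, log2) of every tested gene in each list, with the number tested in brackets, red where the adjusted p was under 0.05 and a black bar at the median of the list. The bars of the retinoid, growth factor, complement, reelin and hepatocyte lists stand near 0, and those of the other stellate, Kupffer and endothelial lists at -1.34, -3.63 and -2.32.

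Most other genes of retinoid handling did not pass the test. The 28 tested carry, esterify, hydrolyse or oxidise retinoids or bind them in the nucleus. Of these, 3 were lower in 8c, against 1.54% of all features, 0 were higher and the median was -0.08. The 3 were Rarg, Ces1d and Aldh1a1. Rarg, a retinoic acid receptor, was 1.84-fold lower by the rule for dim arrays and in the test only through its 2c arrays. It was well above background on 4 2c arrays, so this is no strict bound. Ces1d, a carboxylesterase, was 1.55-fold lower (SE 0.14 on the log2 scale, adjusted p = 0.0411, limma). Aldh1a1, which oxidises retinal to retinoic acid, was 1.33-fold lower (SE 0.09, adjusted p = 0.0384, limma). Rbp4, the plasma carrier of retinol made by hepatocytes, differed by -0.07 (SE 0.09, adjusted p = 0.767, limma). Dgat1, another enzyme that can esterify retinol, differed by 0.03 (adjusted p = 0.84, limma). In 4c against 2c, 0 of the 28 passed (limma), with 9 at an unadjusted p under 0.05, against 2764 of all 17416 features. Of 8 more with a probe, too dim to be tested, 4 were well above background in 2c arrays alone (50%). The share over all 9101 such genes was 8.43%. These 4 were Aldh1a3, Crabp1, Bco1 and Lipe, on 1 2c array each.

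The partners of Hgf, Pdgfrb, Reln and the collectins were mostly flat. Of all 17416 features, 1.54% were lower in 8c against 2c, and 2584 had an unadjusted p under 0.05. Of 11 tested genes of PDGF and HGF signalling, Pdgfra alone passed in 8c against 2c, with the limit given above, and the median was -0.05. Met, the HGF receptor of hepatocytes, differed by 0.03 (SE 0.08), and Hgfac, the protease that activates HGF, by 0.05 (SE 0.09). Of 7 tested genes of the reelin pathway 0 passed (limma), with 1 at an unadjusted p under 0.05, and the reelin receptor genes Vldlr and Lrp8 were well above background on 0 arrays. The adaptor gene Dab1 differed by 0.27 (SE 0.13, adjusted p = 0.367, limma). Of 9 tested genes of the lectin pathway 0 passed (limma), again with 1 at an unadjusted p under 0.05. Masp1 and Masp2, the proteases that collectins carry, differed by 0.05 and 0.15, and the mannose-binding lectin gene Mbl1 by -0.01. Fcna, a ficolin gene, resembled Colec10 in being well above background on 4 2c arrays and on no other.

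Of 9 tested genes of small proteoglycans and other matrix partners of Bgn and Ecm1, 2 were lower in 8c. The share over all features was 1.54%. Sparc, a matrix glycoprotein, was at least 15-fold lower (adjusted p = 0.00533, limma), and Eln, the elastin gene, 4.11-fold (SE 0.20 on the log2 scale, adjusted p = 0.00121). Fn1, the fibronectin gene that hepatocytes also express, differed by -0.0035 (SE 0.10, adjusted p = 0.99, limma). Of 8 tested muscle and intermediate filament genes, set beside Des, the small heat shock gene Cryab alone was lower (4.02-fold, SE 0.19, adjusted p = 0.0011, limma). Synm, whose product synemin pairs with desmin, was well above background on 4 2c arrays and on no other, unlike Des.

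Markers of other cells moved with these genes. The counts below stand against 1.54% of all features that passed as lower in 8c. Of 11 tested Kupffer cell genes 9 were lower in 8c, 4 of them in the test only through their 2c arrays, with a median of -3.63. Clec4f, a lectin receptor that marks Kupffer cells, differed by -5.16 (SE 0.80, adjusted p = 0.009), at least 30.5-fold. Of 11 tested sinusoidal endothelial genes 5 were lower, 2 of them in the test only through their 2c arrays, with a median of -2.32, among them Kdr, at least 13.8-fold (adjusted p = 0.0117, limma). Stab2, a scavenger receptor of these cells, was above background on 4 2c and 2 8c arrays and did not pass (adjusted p = 0.224, limma). The summed level of the 11 Kupffer cell genes ran from 0.94 to 4.06 on the 2c arrays and from 0.14 to 0.77 on the 8c arrays (log2). For the endothelial genes the sums ran from 1.84 to 2.50 and from 1.63 to 2.47. Of 7 portal fibroblast and mesothelial genes 1 was lower, Eln, and of 4 cholangiocyte genes 1, Epcam (1.73-fold, adjusted p = 0.0082, limma). The part of any of these cells in the levels of the 9 genes was not tested.

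The differences from 2c kept their direction within each slide and without the 6 arrays rich in acinar transcripts. Within slide 1, experiments 1 and 2 alone hold both an 8c and a 2c array. Within slide 2 and without the acinar-rich arrays, experiments 4 and 5 alone do, so these fits are not separate checks. Within slide 1 the 8c minus 2c differences were -5.77 for Bgn, -6.28 for Colec11, -4.48 for Lrat, -3.67 for Reln and -6.21 for Ecm1. Within slide 2 they were -4.70, -4.51, -3.87, -3.72 and -4.10, and without the acinar-rich arrays -4.65, -4.51, -3.93, -3.67 and -4.08. In each of these 3 smaller fits 0 of all features passed (limma), and at an unadjusted p under 0.05 there were 5, 6 and 6 of the tested genes of the set, among 1561, 1661 and 1239 features. The counts of 6 include Lrat and Reln, in the test only through their 2c arrays, and Pdgfrb, which was not lower in 8c. These counts are a description and no test of the falls.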

How the data were processed

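Per the labels, total RNA of sorted cells was amplified, labelled with Cy3 and hybridised to one-colour Agilent rat arrays. The authors deposited spot intensities on a linear scale, background-subtracted and detrended by Feature Extraction, version 11.5.1.1 per the file headers and 10.7.3.1 per the submitters' processing notes, with no normalization between arrays. The deposited value table holds the same intensity per probe, also linear.

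Control and outlier spots (264 to 539 per array) were left out and spots of a probe averaged. From these deposited intensities, log2 levels were computed and each array's 75th percentile subtracted, taken over 16211 probes that were well above background on every array. Probes well above background on at least 5 of 15 arrays were tested, a gene by its brightest. In R 4.3.3, limma 3.58.1 fitted DNA content with the experiment as a block, on all 15 arrays, with two-sided p-values adjusted after Benjamini and Hochberg over 17416 features (threshold 0.05). The experiment numbers pair the arrays, since the design text gives 5 independent experiments. After removal of the group means, the 15 pairs of 1 experiment correlated with a median of 0.58 (0.04 to 0.79), 14 of them over 0.1. The 60 pairs of different experiments had a median of -0.13 (-0.62 to 0.41), 16 of them over 0.1. The fit was tested on simulated data. Nothing says that fractions came from separate animals, so p-values measure the spread between experiments.

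The 9 genes and all lists were chosen with earlier results of these data known. Named from each list were up to 4 genes that passed, or the 2 brightest where none did (not all of these are reported here), and the 2 genes nearest to each tested gene. Other partner genes were named after their values were seen. Promoters come from RefSeq, assembly GRCr8; probe positions are rn4. Alternatives covered scaling, background correction, filters, blocks, slides and arrays left out.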

Additional observations from a re-analysis of the deposited data

Results flagged for a closer look

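Of 27 groups checked (9 genes in 3 fractions), 1 held an array far from the other 4. Des read -8.45 on the 8c array of experiment 1, against -6.76 to -6.36 on the other 8c arrays (log2, where 0 is the 75th percentile of the array). None of these 5 arrays was well above background for Des. Chance marks about 1 in 20 such groups.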

How the results depend on the processing

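In 8c against 2c, 5 genes passed, and in 4c against 2c, 5, in both with Lrat and Reln, which were tested only through their 2c arrays. The directions of Bgn, Colec11, Lrat, Reln and Ecm1 in both comparisons held under every alternative run in which they were tested. The counts stayed within 1.5 times with quantile normalization, the median or the 75th percentile over all probes as the scaling point, the authors' value table, averaged probes of a gene, dim arrays at their floor and the experiment as a random block. With normexp background correction 3 and 3 passed, and Lrat, at -0.93 in 8c, was not among them. Normexp moved the median of all features to -0.11 and the absence of a filter moved it to -0.15 in 8c against 2c. Among probes well above background on all arrays, where Bgn and Pdgfrb alone remain, 1 and 1 passed. Without the replicate block 3 and 1 passed, with Bgn at an adjusted p = 0.0508 in 8c, and with the slide as the block 1 passed in 4c. Without a filter on dim probes 0 passed in 4c. Within slide 1, within slide 2 and without the acinar-rich arrays, 0 passed in either comparison, and these fits hold fewer arrays. Without experiments 1 and 2, 1 passed in 8c and 0 in 4c. The 1 was Lrat, whose call is no test. With 1 experiment left out, 1 to 5 passed in 8c, the 1 being Ecm1 without experiment 5, and 0 to 3 in 4c, with 2, 1, 0, 3 and 0 without experiments 1 to 5. In 8c against 4c, 0 passed everywhere, and uncalled differences turned sign. Lrat was -0.0282 with normexp and -0.0486 within slide 2, and Reln 0.12 with dim arrays at their floor. Pdgfrb was 0.0060 with the median, 0.0069 with the percentile over all probes, 0.0472 with the slide as the block, 0.035 within slide 2, -0.0485 to 0.0365 with each experiment left out in turn, and 0.0066 without the acinar-rich arrays. The interaction with age passed for 0 genes under each alternative. The cause of these losses was not tested. Signal near background limits Lrat, Colec10, Hgf and Des, whose folds are bounds, rest in part on dim 2c arrays or are not given.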
